A study of Mus musculus with 8 samples.

Results

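F1 mouse embryonic stem (ES) cells with a stable knockdown of Rif1 at passage 16 were compared with control F1 cells of the same passage. The comparison rests on 4 of the series' 8 arrays, chosen by their titles: 2 carry a short hairpin RNA (shRNA) against Rif1 and 2 a control shRNA. The cells have a C57BL/6xC3H background and were cultured on feeder plates, which in standard practice carry a layer of fibroblasts. The other 4 arrays of the series hold J1 ES cells collected after a transient transfection and were not compared here. RNA was extracted with Trizol, labelled and hybridised to the Affymetrix Mouse Genome 430 2.0 array, whose probe sets each report a signal for a transcript. Apart from the hairpin, the labels give both F1 groups the same background, passage and culture. The cell line field of the control arrays carries the name of the knockdown line too, and the transfection field and title are what separate the groups. The labels' treatment text speaks of virus or siRNA followed by selection, whereas the transfection field names shRNA. Nothing says whether each line is a clone or a pool, or whether the 2 arrays of a group came from separate cultures. The p-values therefore measure only the spread between these arrays, which may be technical.

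Rif1 encodes a large nuclear protein first described at yeast telomeres. In mammalian cells it acts at broken DNA ends, where it limits end resection, and it brings protein phosphatase 1 to replication origins and so sets their time of firing. Mouse ES cells express it at a high level, and it has been tied there to telomere length and to the silencing of genes that are otherwise active in embryos at the 2-cell stage.

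A signal below is the deposited value on its linear scale. Fold changes are differences of log2(signal + 18), Rif1 shRNA minus control, and a number in brackets after a gene name is this log2 fold change. The offset of 18 makes the change of dim genes look smaller than it was. A gene is said to rise or fall only where limma, fitted to the 4 arrays, gave an adjusted p under 0.05 over all 27733 probe sets tested. Each gene stands at its brightest tested probe set unless another is named. Replicate arrays correlated at 0.997 in controls and 0.997 in knockdown cells, and arrays of different groups at 0.986 to 0.988. The median difference between the replicates of a probe set was 0.09 in controls and 0.07 in knockdown cells on the log2 scale. The ratio of the 3' to the 5' actin control, a sign of RNA integrity, stood at 1.35 and 1.41 in controls and 1.33 and 1.33 in knockdown cells. With 2 arrays a group, precision rests on that number.

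Rif1 was reduced at each of its 4 probe sets. The brightest gave 4231 and 4247 on the control arrays and 1339 and 1407 on the knockdown arrays, which left 32.7% on the log2(signal + 18) scale. A second probe set went from 2470.3 and 2565 to 565 and 685, the deepest fall of the 4 (log2 fold change -1.99, SE 0.09, limma adjusted p = 3.11e-05), with 25.3% left. Another went from 1262 and 1366 to 364 and 461 (-1.64) and left 32.2%. The last was dim and scattered, at 107 and 57.1 against 26.8 and 3.17 (-1.65, limma adjusted p = 0.0163), and did not pass at an adjusted p under 0.01. No knockdown array reached a control array at any of these probe sets, and the hairpin left about the same share of signal at 3 of them.

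The knockdown culture differed from its control at a large share of the genes measured, and the large changes ran mostly upward. Of 13349 genes, 2895 rose (21.7% of all genes tested) and 1714 fell (12.8%). Among those changed at least 2-fold, 321 rose (2.4%) and 57 fell (0.427%), and 32 rose against 2 that fell at least 4-fold. Of the 321, 65 were under a signal of 46.6, the dim cutoff, on both control arrays, so they rose from near background. The median over all genes was 0.02, and the median called change was 0.40 for genes that rose and -0.34 for those that fell. At the level of probe sets, 4941 were higher (17.8%) and 3157 lower (11.4%), so that 61.0% of the calls were higher. After quantile normalization the balance was nearly even, at 4149 and 4074, or 50.5% higher. Single arrays set how many small changes passed: 4353 probe sets were called without Rif1 shRNA replicate 1 and 5164 without replicate 2, while the 539 higher (1.94%) and 88 lower (0.317%) probe sets past 2-fold became 521 and 78, and 573 and 109. Of the 8098 probe sets called with all 4 arrays, 0 were called with the opposite sign in any of these limma fits. Among 6026 genes with several probe sets, 68 were called in both directions at different probe sets.

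**Figure D1:**
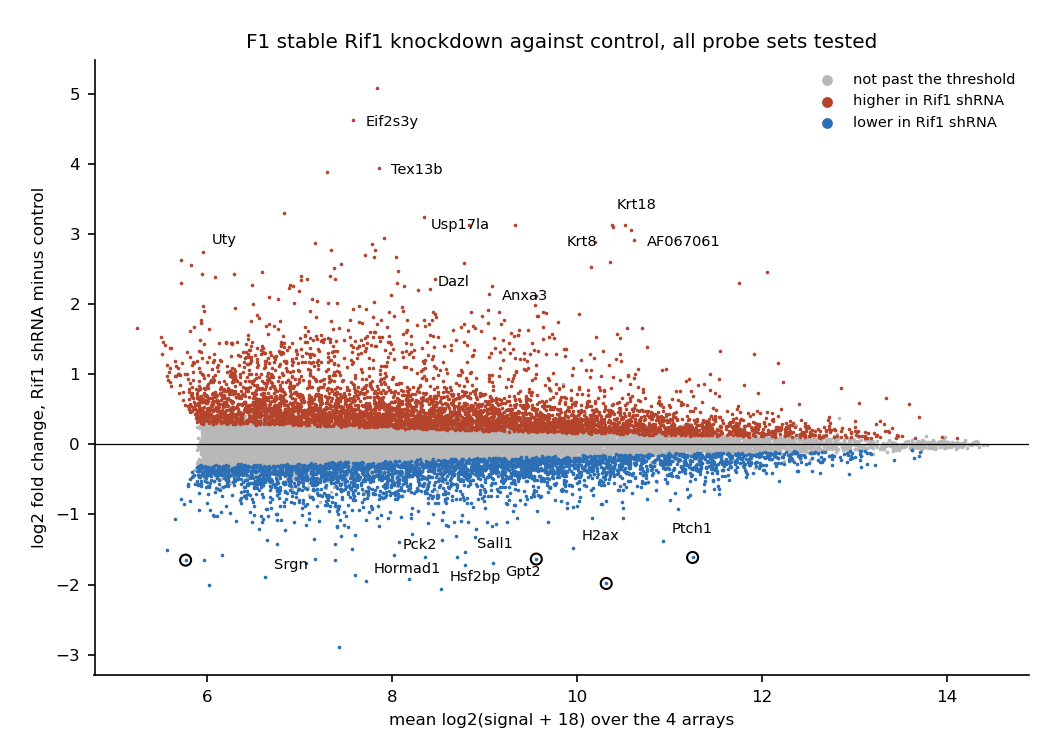
Log2 fold change of each of the 27733 probe sets tested (vertical axis, Rif1 shRNA minus control) against its mean log2(signal + 18) over the 4 arrays (horizontal axis), with probe sets past the threshold in red (higher) and blue (lower) and the 4 Rif1 probe sets ringed. The spread is wider above 0 than below it: 539 probe sets lie past 2-fold on the upper side and 88 on the lower.

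The groups also differed in transcripts of the Y chromosome. Eif2s3y, a translation factor gene on the Y, had signals of 19.9 and 21.4 on the control arrays and 911 and 959.8 on the Rif1 shRNA arrays. Uty, which encodes a histone demethylase relative, went from 7.54 and 4.69 to 144 and 142. The controls lay near background for both genes and the knockdown arrays did not. Sry, the testis-determining gene, rose from 375 and 414 to 1771 and 1291 at a probe set whose name marks possible cross-hybridisation, and Usp9y fell from 79.6 and 100.02 to 29.7 and 43.7. The Y-linked gene Kdm5d was dim on all 4 arrays (14.6 and 18 in controls and 13.1 and 13.5 in knockdown). Among 14 X-linked dosage genes, Xist, the RNA of X inactivation, rose from 106 and 117 to 192 and 205 (0.74), Dusp9 rose by 0.23 (a call lost without Rif1 shRNA replicate 1), Usp9x fell (-0.39) and Hprt fell (-0.15, lost without either Rif1 shRNA replicate). With control replicate 1 left out 5 of these X-linked genes fell, and with Rif1 shRNA replicate 2 left out 1 did. Eif2s3y and Uty separated the groups along with the hairpin, whereas Usp9y fell and Orly, also on the Y, did not pass (-0.11). The origin of each line and the knockdown cannot be told apart in these 4 arrays.

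Markers of fibroblasts, the cells of the feeder layer, were higher in the knockdown culture across nearly the whole list. Of 30 measured, 28 rose, with a median of 1.32. The other 2, the protease gene Fap (0.05) and the fibronectin gene Fn1 (0.13), did not pass. The signals of the list summed to 17890.1 and 17889 in controls and to 37638 and 35615 in knockdown cells, and 0 of its 30 genes were at the lowest deposited value. Col5a2, a collagen chain, went from 159 and 167 to 682 and 618 (log2 fold change 1.88, SE 0.08, limma adjusted p = 2.49e-05), and the collagen cross-linking enzyme gene Lox went from 145 and 129.5 to 483 and 549. The defining markers Col1a2 (1.63), Postn (1.55), Col3a1 (1.54), Thy1 (1.34), Dcn (1.34) and Col1a1 (0.78) rose. Groups did not overlap at 29 of the 30 genes, against 70.5% of all genes tested. In a bulk sample, more cells of a type and more RNA per cell cannot be told apart.

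Genes of the contractile cytoskeleton and of the annexin and S100 families rose beside the fibroblast markers. Of 21 contractile genes 18 rose (median 0.55), led by smooth muscle actin Acta2, from 989 and 859 to 2736 and 3163, and Tagln, an actin-bundling protein gene, from 801 and 759 to 2239 and 2491. Csrp1 (1.21), Cald1 (1.07) and Actg2 (1.05) followed. Of 19 annexin, S100 and galectin genes 13 rose (median 0.79, and 0.50 without the genes that the fibroblast and contractile lists share with it). Annexins bind membranes in the presence of calcium, and Anxa3 rose most, from 243 and 226 to 1143 and 1059, ahead of Anxa1 (1.86), Anxa2 (1.67), S100a4 (1.53) and Anxa5 (1.53). The part of fibroblast RNA in these rises was not tested. Leaving out the probe sets of the fibroblast, contractile and Y-linked lists kept 27631 of 27733, with 4854 higher and 3153 lower. So few were left out that these counts cannot show what fibroblast RNA contributed.

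Endothelial and blood markers did not move as a block. Of 12 endothelial genes, Tie1 (0.84) and Esam (0.46) rose and Vwf (-0.80), Tek (-0.68) and Plvap (-0.31, lost without control replicate 2 or either Rif1 shRNA replicate) fell, while Pecam1 had -0.17 (limma adjusted p = 0.152). Cdh5, a defining endothelial marker, was dim on every array. Of 9 blood and macrophage genes, Lyz2 rose by 0.41, a call lost without control replicate 2 or Rif1 shRNA replicate 1. The proteoglycan gene Srgn fell from 178 and 169 to 30.7 and 36.5, and Laptm5 fell (-0.60). Ptprc, which marks all white blood cells, was dim throughout (20.3 and 13.9 in controls and 12.2 and 14.8 in knockdown).

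**Figure D2:**
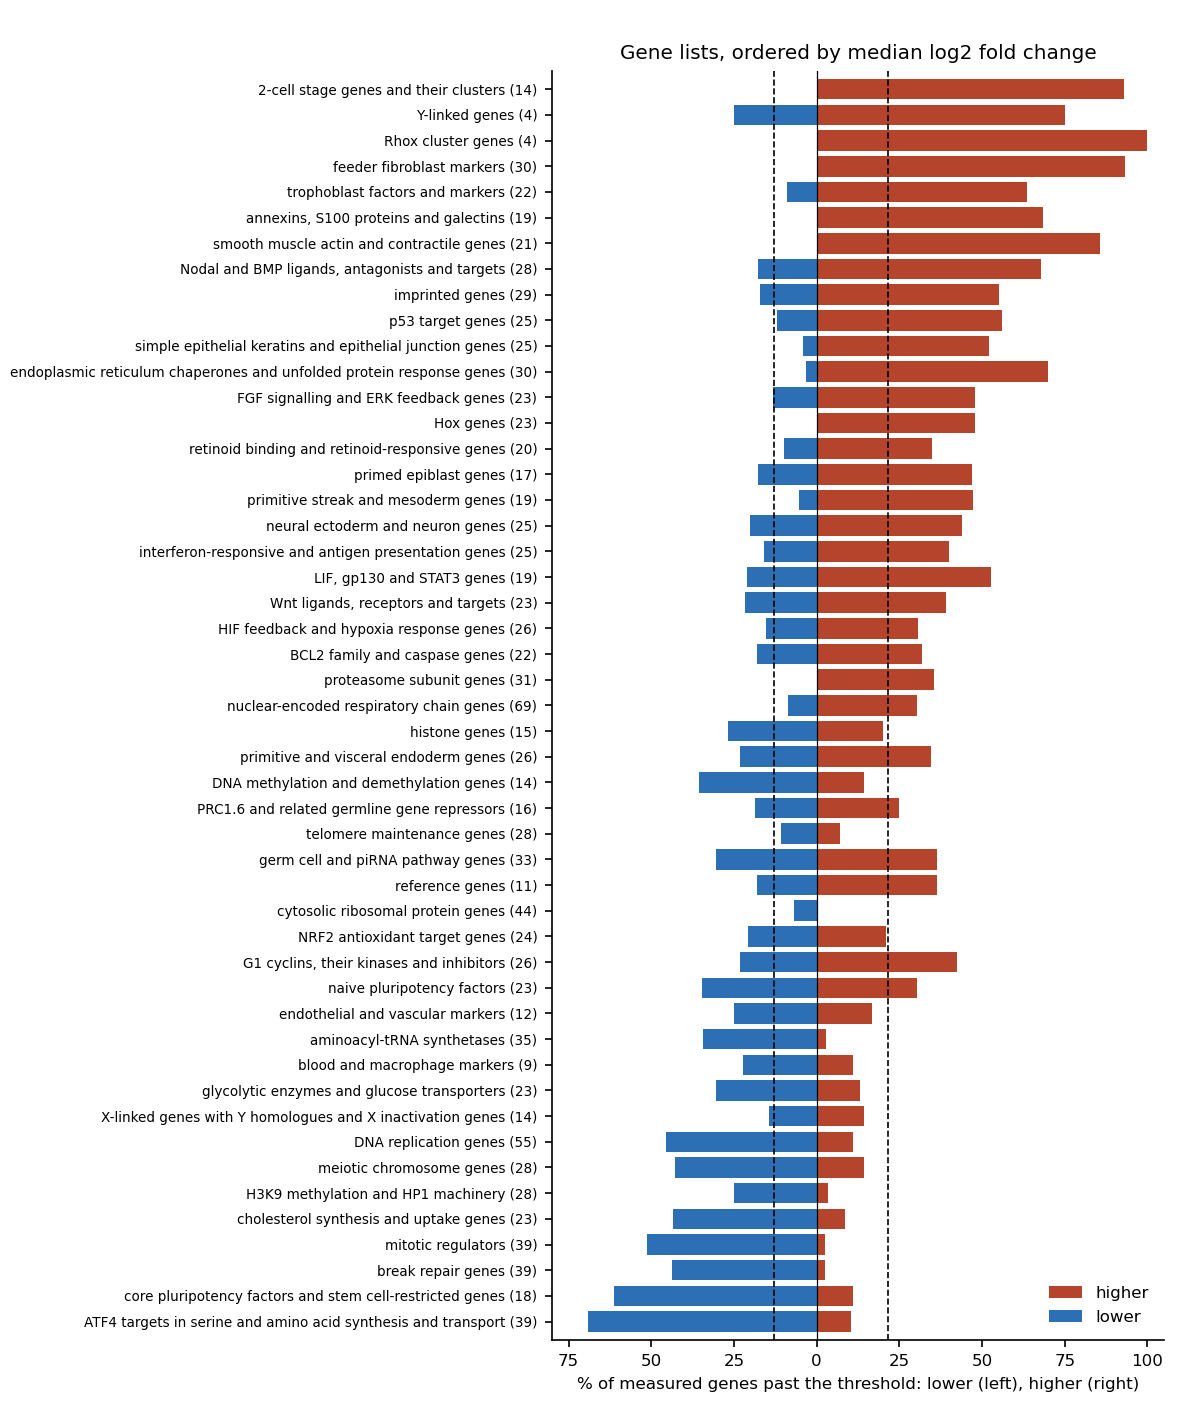
Share of the measured genes of each list that fell (blue, left of 0) or rose (red, right of 0) in Rif1 shRNA cells, in percent, with the number measured in brackets and the lists ordered by their median log2 fold change. The dashed lines mark the shares over all genes tested, 12.8% lower and 21.7% higher; the 2-cell, Rhox, fibroblast and contractile lists extend furthest to the right, and the ATF4 target and core pluripotency lists furthest to the left.

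Genes expressed in the 2-cell embryo had the highest median of all lists (the Y-linked list was higher when no offset was added), and several of them are neighbours on a chromosome. Of 14 measured, 13 rose, with a median of 2.52, and 11 rose at least 2-fold. The list was drawn up with earlier results of these data in view, so its direction is a description. Usp17la, a deubiquitinase gene, had signals of 195 and 202 on the control arrays and 1954 and 1814 on the Rif1 shRNA arrays (log2 fold change 3.14, SE 0.06, limma adjusted p = 2.58e-06). BC080696 rose from 145 and 129 to 1414 and 1258, and Sp110, a nuclear body protein gene, rose from 38.9 and 49.7 to 421 and 396. Each of these genes was higher on both knockdown arrays than on either control array by several fold. Zfp352 (2.40), a zinc finger gene active at this stage, and Pramel18 (2.59) rose as well, each without overlap. Pramel7, which acts in naive ES cells, had 0.14 (limma adjusted p = 0.297), although 1 of its 2 probe sets rose.

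A run of neighbouring genes on chromosome 13 held several of them. In the order of the chromosome these were AF067063, D13Ertd608e, Tcstv1, Gm20767, AF067061, BC147527 and Tcstv3, all 7 past 2-fold and between 1.50 and 2.92. Tcstv1 had signals of 68.9 and 59.5 on the control arrays and 535 and 499.9 on the Rif1 shRNA arrays. Tcstv3 was near background in controls, at 22.4 and 24.5, and reached 237 and 185. These genes belong to families of similar copies, so a probe set may read more than a single member, and their values are uncertain as values of single genes. Similar short runs, found by a rule set after the values were seen (at least 3 of 4 consecutive tested genes past 2-fold), numbered 9 among the rises, that on chromosome 13 included. The others included Gbp3, Gbp2b and Gbp2 on chromosome 3, Cdkn2a, Cdkn2b, Zfp352 and Tusc1 on chromosome 4, Tes, Cav2 and Cav1 on chromosome 6 and Rhox6, Rhox9 and Rhox13 on the X. None was found among the falls.

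Germline genes moved strongly in both directions. Meiosis-specific genes encode the axis of the meiotic chromosome, the synaptonemal complex that joins homologues and the machinery of programmed breaks, and ES cells express several of them. Of 28 meiotic chromosome genes 4 rose and 12 fell (median -0.13, -0.24 without control replicate 2 and -0.38 with the filter at the 60th percentile), against 21.7% and 12.8% of all genes. Of 33 germ cell and piRNA pathway genes 12 rose and 10 fell, with a median of -0.001 that was 0.08 without control replicate 1. Members of both lists were partly chosen with earlier results known.

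The falls were led by genes of the meiotic axis and of recombination. Hsf2bp, which brings recombinases to meiotic breaks, had signals of 699 and 778 on the control arrays and 165 and 160.1 on the Rif1 shRNA arrays (log2 fold change -2.06, SE 0.08, limma adjusted p = 2.10e-05). Hormad1, a component of the unsynapsed axis, fell from 393 and 397 to 89.5 and 88.4. Both lay far below either control on each knockdown array. The meiotic recombinase gene Dmc1 fell (-1.05), and so did Rec114 (-0.90), needed for break formation, and the axis gene Sycp3 (-0.89). Syce2, which encodes a part of the central element, fell from 2998 and 2951 to 1620.4 and 1506. In the piRNA pathway, which silences transposons in germ cells, Tdrd12 fell from 754 and 822 to 227 and 226 and Piwil4 fell (-0.93). Pdcl2 fell to background, from 91.6 and 93.3 to 16.9 and 17.7.

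The rises held other members of the same structures. Syce1, another central element gene, rose from 357 and 358 to 1527 and 1425 (log2 fold change 1.99, SE 0.06, limma adjusted p = 1.03e-05), Sycp1, the transverse filament gene, by 0.71 and Tex12 by 0.64. Syce1 and Syce2 therefore moved in opposite directions, each without overlap of the groups. Dazl, an RNA-binding regulator of germ cells, went from 211 and 248 to 1153 and 1177, and the X-linked Tex13b went from 37.7 and 44.8 to 861 and 921, the largest rise of a named gene outside the Y. Slc25a31 (1.61), an ADP/ATP carrier of germ cells, Tdrkh (1.09) and Taf7l (0.97) rose, Mael rose by 0.63, and Ddx4, the vasa helicase gene, had 0.05 (limma adjusted p = 0.651).

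The E-box CACGTG, a site that dimers of MAX with MGA or MYC can bind, was counted in the promoters of these lists. MGA and MAX belong to PRC1.6, a Polycomb complex that represses germline genes in ES cells. The palindrome was searched in RefSeq promoters (GRCm38.p6, 250 bases before to 50 after the start). It was present in 8.09% of all 27025 promoters, in 11.5% of those of 10724 tested genes and in 15 of 48 (31.2%) from both germline lists. Of the 15 holders 7 rose (46.7%) and 5 fell (33.3%), and of the 33 germline genes without it 8 rose (24.2%) and 12 fell (36.4%). Among all tested genes with the motif 22.1% rose and 13.9% fell. The windows below are examples of this E-box in genes that changed in each direction, and other holders, Rec114 among them, are not shown. Hormad1, Sycp3 and Syce2 fell, and Slc25a31, Taf7l, Sycp1 and Tex12 rose. Each reads 5′ to 3′ on the strand of its gene, with the motif in capitals; the Sycp3 window holds the same letters again in lower case.
Hormad1 (chr3:95559590-95559655, plus strand): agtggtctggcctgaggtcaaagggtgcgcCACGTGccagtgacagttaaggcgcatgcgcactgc
Sycp3 (chr10:88459493-88459558, plus strand): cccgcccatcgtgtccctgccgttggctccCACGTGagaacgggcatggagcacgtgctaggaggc
Syce2 (chr8:84872140-84872205, plus strand): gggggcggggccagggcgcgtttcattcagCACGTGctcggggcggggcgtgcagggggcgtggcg
Slc25a31 (chr3:40708748-40708813, plus strand): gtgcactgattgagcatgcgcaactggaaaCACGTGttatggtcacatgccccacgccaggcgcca
Taf7l (chrX:134476504-134476569, minus strand): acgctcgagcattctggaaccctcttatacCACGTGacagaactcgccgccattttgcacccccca
Sycp1 (chr3:102936159-102936224, minus strand): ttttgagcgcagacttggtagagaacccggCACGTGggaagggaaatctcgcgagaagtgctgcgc
Tex12 (chr9:50561326-50561391, minus strand): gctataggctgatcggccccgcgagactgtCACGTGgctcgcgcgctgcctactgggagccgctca
A match of these letters is a description of the sequence. In the windows the motif begins 49 to 94 bases before the start, and the flanks of fallen and risen genes were not compared.

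Of 16 genes of PRC1.6 and related repressors, 4 rose and 3 fell, where 21.7% and 12.8% of all genes tested did. Their median was 0.01, and -0.01 after quantile normalization or without control replicate 2. Mga itself, the scaffold of the complex, fell from 656 and 703 to 447 and 489 (log2 fold change -0.52, SE 0.07, limma adjusted p = 0.00226), and at each of its 4 probe sets. E2f6, a DNA-binding subunit, rose from 516 and 514 to 742 and 771, at 1 of its 2 probe sets, and Max had 0.15 (limma adjusted p = 0.125). The fallen genes were 1 without either Rif1 shRNA replicate, where L3mbtl2 (-0.17) and Cbx1 (-0.17) did not pass; L3mbtl2 was also lost without either control replicate.

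Pluripotency factors stayed expressed in the knockdown culture, and a part of them fell by moderate steps. Core factors keep ES cells self-renewing, and naive factors mark the ground state of the preimplantation epiblast. Pou5f1, the central factor, had signals of 7017 and 8482 on the control arrays and 8342 and 7978 on the Rif1 shRNA arrays and did not pass (limma adjusted p = 0.5), with overlapping groups. Sox2 was at 6907 and 6960.1 on the control arrays and 5935 and 5987 on the Rif1 shRNA arrays and fell by a small amount (-0.22). Nanog had 0.16 and passed with all 4 arrays, but not without either Rif1 shRNA replicate. Pou5f1, Sox2 and Nanog were thus far above the dim cutoff on all 4 arrays.

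Of 18 core pluripotency and stem cell-restricted genes 11 fell and 2 rose (median -0.21). The fall of Sall1, a zinc finger factor of the Nanog network, was the deepest, from 787 and 687 to 266 and 218 (log2 fold change -1.54, SE 0.11, limma adjusted p = 1.77e-04). Mybl2, a cell cycle factor abundant in ES cells, fell from 2963 and 3074 to 1778 and 1799, Lin28a fell (-0.45), and Dppa2 rose (0.38). The 11 became 6 without Rif1 shRNA replicate 1 and 8 without replicate 2. Of 23 naive factors 7 rose and 8 fell (median -0.04, and -0.02 without Rif1 shRNA replicate 1). Tcl1, a cofactor of AKT signalling, fell from 1483 and 1813 to 888 and 915, and the nuclear receptor genes Nr0b1 (-0.56), Esrrb (-0.50) and Nr5a2 (-0.39) and Fgf4 (-0.60) fell. On the other side Socs3 (0.78), a target and inhibitor of STAT3, Gbx2 (0.55), Tex19.1 (0.46) and Fbxo15 (0.46) rose. Klf4 (0.09), Tbx3 (0.08) and Klf2 (-0.23) did not pass.

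Genes of the primed epiblast, the later state that follows implantation, split as well: 8 of 17 rose and 3 fell (median 0.19), with 5 and 1 without either Rif1 shRNA replicate and a median of 0.11 without replicate 2. Car2 rose most, from 749 and 610.0 to 2003 and 1986, and Nodal (0.54) and its feedback inhibitors Lefty2 (0.58) and Lefty1 (0.33) rose. Otx2, the factor that starts the passage to the primed state, fell from 274 and 318 to 147 and 158. Fgf5, its classic marker, was dim on all arrays (27.1 and 29.5 in controls and 34 and 30.4 in knockdown), and Pou3f1 had -0.16 (limma adjusted p = 0.494).

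**Figure D3:**
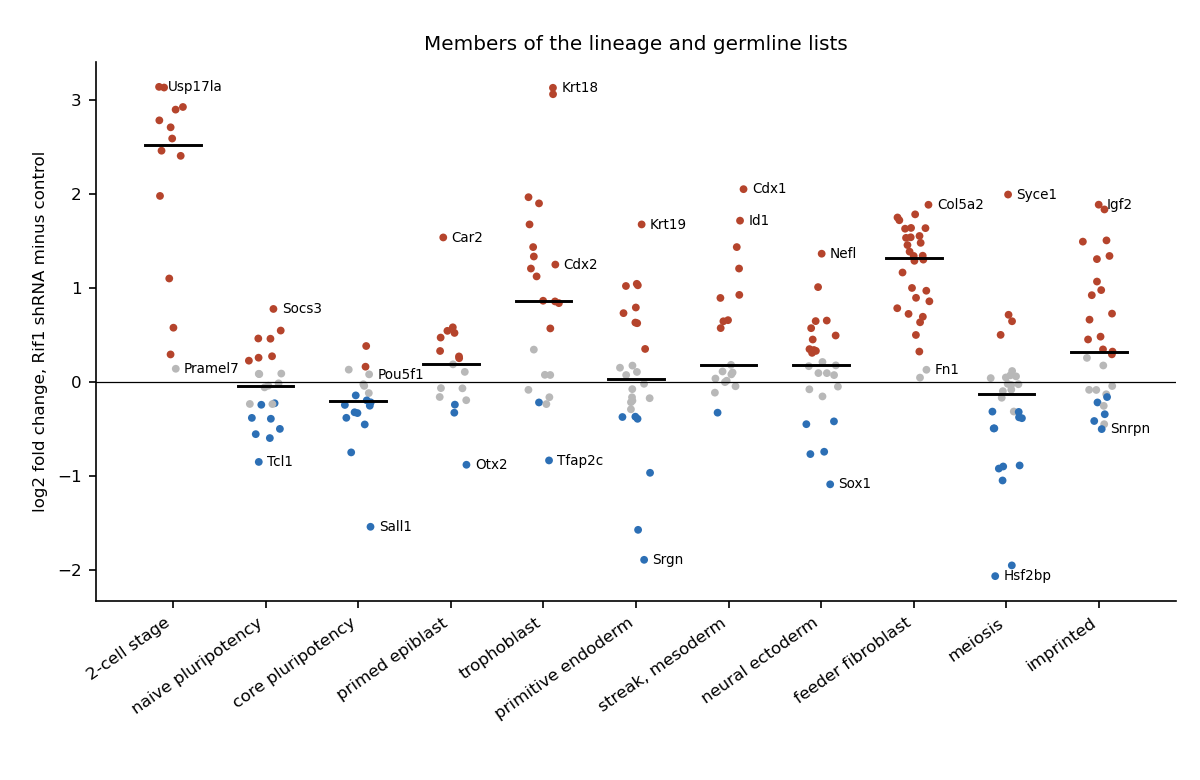
Log2 fold change of each measured gene on the lineage and germline lists (points; red past the threshold upward, blue downward, grey neither), with a bar at each list's median. The 2-cell and fibroblast lists lie almost wholly above 0, trophoblast genes reach 3.13, and the meiotic list stretches from -2.06 to 1.99.

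Trophoblast genes and the keratins of simple epithelia rose, and their lists share genes. Trophoblast is the outer lineage of the blastocyst that builds the placenta, and Cdx2, Eomes, Elf5 and Gata3 define it. Of 22 measured trophoblast genes 14 rose and 2 fell, with a median of 0.86, against a median of 0.02 over all genes. Krt8 and Krt18 are on both lists, and Krt7, Krt19, Rhox5, Rhox6 and Rhox9 also count among these 22. The factor genes Gata2 (0.08), Tead4 (0.07) and Ascl2 (-0.08) did not pass, although 1 of the 2 Gata2 probe sets rose. Krt18 had signals of 481 and 478 on the control arrays and 4498 and 4161 on the Rif1 shRNA arrays (log2 fold change 3.13, SE 0.05, limma adjusted p = 2.32e-06), and its pairing partner Krt8 had 525 and 506 on the control arrays and 4645 and 4208 on the Rif1 shRNA arrays. The other keratin pair rose less, with Krt7 from 49.9 and 58.3 to 267 and 234 and Krt19 from 53.9 and 59.3 to 230.1 and 210.2. All 4 were several fold above either control on each knockdown array.

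Among the factors, Cdx2 rose from 39 and 39.6 to 125 and 111 (log2 fold change 1.25, SE 0.09, limma adjusted p = 2.27e-04), at 1 of its 2 probe sets. Eomes rose from 86 and 91.5 to 222 and 234, at 2 of 2. Hand1, which drives giant cell formation, rose from 36.6 and 32 to 135 and 112. Gata3 stayed under the dim cutoff (21.4 and 15.1 in controls and 35.7 and 45.4 in knockdown), and so did Elf5 (28.2 and 24.9 in controls and 21 and 25.6 in knockdown), so 2 of the 4 defining markers were not tested. Tfap2c, which trophoblast shares with germ cells, fell from 1334 and 1175 to 712 and 677, at all 3 of its probe sets. Rhox5, Rhox6, Rhox9 and Rhox13, the measured genes of an X-linked homeobox cluster active in placenta and germ cells, all rose: Rhox6 from 124 and 119.6 to 537 and 516, Rhox13 by 2.03, Rhox9 by 1.12 and Rhox5 by 0.86.

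Of 25 keratin and epithelial junction genes 13 rose (median 0.31). Besides the keratins they included Dsp (1.24), which encodes a linker of desmosomes. The adherens junction gene Cdh1 had 2738 and 2545 on the control arrays and 2993 and 2793 on the Rif1 shRNA arrays and did not pass (0.13), and the membrane linker gene Ezr fell by a small step (-0.15), a call lost without control replicate 1 or either Rif1 shRNA replicate. Fibroblast markers rose in the same arrays, and their part in the keratin rise was not tested.

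Extraembryonic endoderm genes gave no shared direction, and 9 of 26 rose and 6 fell, where 21.7% and 12.8% of all genes tested did. The defining factors Gata6 (-0.08) and Sox7 (-0.22) did not pass, Sox17 was dim, and Gata4 fell (-0.37) from 59.8 and 53.6 to 39.6 and 39.6, a call lost without control replicate 1 or either Rif1 shRNA replicate. The 9 rises included those of Krt19, Thbd (1.04) and the basement membrane genes Col4a1 (1.03) and Col4a2 (1.02), which fibroblasts make too. Lama1, the laminin chain of the embryonic basement membrane, fell (-0.97), and Cubn, an endocytic receptor of visceral endoderm, fell from 104 and 108 to 22.8 and 24.5.

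Several genes of the primitive streak and mesoderm list rose, among them known targets of BMP and Wnt. Of 19 measured, 9 rose, and Bmp7 fell (-0.33) with all arrays but not without control replicate 2 or either Rif1 shRNA replicate. Cdx1, a caudal homeobox factor, went from 56.3 and 51.2 to 276 and 281 (log2 fold change 2.05, SE 0.08, limma adjusted p = 2.67e-05), from signals just above the dim cutoff. Id1, a target of BMP that blocks basic helix-loop-helix factors, went from 307 and 294 to 1039.8 and 1015, and Id3 rose by 0.92. Hand1 and Eomes, which rose, are on the trophoblast list too. The mesendoderm gene Mixl1 had 0.04 (limma adjusted p = 0.808), and its groups overlapped. Among others that did not pass were Evx1 (0.18), Wnt3a (0.11), Msgn1 (0.08), Kdr (0.01), Mesp1 (-0.003) and Lhx1 (-0.11).

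Ligands, antagonists and targets of Nodal and BMP rose more often than they fell. Of 28 Nodal and BMP genes 19 rose and 5 fell (median 0.45), where 21.7% and 12.8% of all genes tested did. The ligand gene Bmp4 rose from 122 and 106 to 326 and 304, the BMP antagonist Grem1 by 1.49, Tgfb2 by 1.05 and the activin antagonist Fst by 1.03. Tgfbi fell (-0.72) and Inhbb, an activin subunit, fell (-0.49), and the fallen genes were 2 without Rif1 shRNA replicate 1 and 3 without replicate 2. Fibroblasts express several of these ligands and antagonists as well.

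Of 23 Wnt genes 9 rose and 5 fell. The median was 0.14, with 0.21 without control replicate 1 and 0.06 without control replicate 2. The direct targets Sp5, from 80.3 and 70.4 to 272 and 273, and Axin2 (0.68) rose, as did the ligands Wnt5a (1.40) and Wnt8a (1.29). The receptor genes Fzd7 (-0.72) and Fzd5 (-0.59) fell, together with the secreted antagonist Sfrp1, from 780.1 and 815 to 439.5 and 425, at all 5 of its probe sets. Nkd1, another target, did not pass (-0.13). The fallen genes were 3 without control replicate 1 or without either Rif1 shRNA replicate.

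In the FGF pathway, which moves ES cells towards differentiation, 11 of 23 genes rose and 3 fell (median 0.26, and 0.09 without Rif1 shRNA replicate 1). ERK feedback genes rose: the phosphatase genes Dusp5 (1.07) and Dusp6 (0.79), and Phlda1 from 241 and 214 to 691 and 584, and Fosl1 (1.33). The main ligand gene Fgf4 fell from 1082 and 1193 to 719 and 771. Spry2 rose (0.58), while Spry1 and Spry4 had 0.05 and 0.02 and did not pass, although 1 of the 4 Spry4 probe sets rose. In the LIF pathway, which holds ES cells in self-renewal, 10 of 19 rose and 4 fell. Osmr rose (1.24), Socs3 rose, and Gab1 (-0.44) and Socs2 (-0.42) fell. The rises were 6 without Rif1 shRNA replicate 2, and the falls 2 without replicate 1.

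Hox genes, which give cells their position along the body axis, are mostly silent in ES cells. Of 23 measured, 11 rose, with a median of 0.25, and 0.15 without control replicate 2. Hoxb1, the first gene of its cluster to be switched on in the embryo, rose from 118 and 105 to 404 and 351. Hoxc8 (1.15), Hoxb2 (1.07), Hoxb6 (0.77) and Hoxb4 (0.75) rose at low signals. The rises were 7 without control replicate 2 or Rif1 shRNA replicate 1. Retinoid genes gave 7 rises among 20, among them the receptor gene Rarb (0.80), which is itself a retinoic acid target, Nr2f1 (1.17) and Rdh10 (0.70). The 2 fallen receptor genes Rara and Rxra did not pass without control replicate 1 or either Rif1 shRNA replicate.

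Neural genes went both ways. Of 25 measured, 11 rose and 5 fell (median 0.18). Factors of the early neural plate fell: Sox1, the first definitive marker of neural plate, went from 224 and 174 to 84.6 and 82.2, Pax6 fell from 230.5 and 231 to 127 and 135, and Hesx1 fell (-0.77). Nefl, a neurofilament gene, rose from 599.7 and 521 to 1414 and 1519, and the retinoid-binding protein genes Crabp1 (0.65) and Crabp2 (0.65) rose with Vim (0.57) and Fabp7 (1.01). Vim is a fibroblast gene too, and fibroblast markers were higher in the same arrays.

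Imprinted genes, expressed from a single parental copy, rose more often than they fell, as all genes tested did (21.7% against 12.8%). Among the 29 measured, 16 rose and 5 fell, with a median of 0.32. The growth factor gene Igf2 went from 277 and 281 to 1144 and 1015 (log2 fold change 1.88, SE 0.07, limma adjusted p = 2.30e-05), and the maternally expressed RNAs of the Dlk1 region, Meg3 from 347 and 425 to 1468 and 1363 and Rian from 72.3 and 72.8 to 274 and 204, rose. Ndn rose (1.50), while Dlk1 itself had 0.26 (limma adjusted p = 0.0828). Snrpn (-0.50), Zdbf2 (-0.42) and Slc38a4 (-0.34) fell. Igf2, Meg3, Ndn and Dcn are also transcribed in embryonic fibroblasts, whose markers rose by a median of 1.32, and the share of that source was not tested.

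A part of the machinery of heterochromatin and DNA methylation fell by small steps. Of 14 DNA methylation genes Mbd2 (0.63) and Mbd1 (0.39, lost without Rif1 shRNA replicate 1) rose and 5 fell. Uhrf1, which brings Dnmt1 to newly copied DNA, fell from 3108 and 2735 to 2065 and 2057, and Tet2 (-0.40) and Hells (-0.37) fell. Dnmt1 (-0.01), Dnmt3a (0.11) and Dnmt3l (0.07) did not pass, although 2 of the 5 Dnmt3a probe sets fell. The falls numbered 3 without Rif1 shRNA replicate 1. Of 28 genes of H3K9 methylation and HP1, 7 fell (median -0.14), where 12.8% of all genes tested fell. Chaf1b, a subunit of the histone chaperone that follows the replication fork, fell from 951 and 983 to 654 and 670.0, and Morc3 fell (-0.42). The count was 3 without Rif1 shRNA replicate 1, 4 without replicate 2 and 12 without control replicate 1. Among histone genes, H1f2 rose from 249 and 259 to 1057 and 954 and H2ax fell from 1602 and 1678 to 584 and 571 (log2 fold change -1.48, SE 0.05, limma adjusted p = 1.80e-05).

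Genes of genome maintenance, where Rif1 itself acts, fell more often than they rose, apart from those of telomeres. Of 39 break repair genes 17 fell and Exo1 rose (0.16), with a median of -0.19, which was -0.12 without control replicate 2 (0 rose without control replicate 2 or either Rif1 shRNA replicate with limma). H2ax, the histone that is phosphorylated around breaks, fell most. Rad51c, a recombinase paralogue, fell from 615 and 643 to 380.4 and 394, and Mdc1, the reader of phosphorylated H2AX, fell from 523 and 509.7 to 308 and 332. Trp53bp1, which recruits Rif1 to breaks, fell from 1409 and 1358 to 1097 and 1081 at its brightest probe set, and none of its other 3 passed. Brca1 (-0.20) and Brca2 (-0.19) did not pass.

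Of 28 telomere genes the helicase gene Pif1 (-0.54), Dkc1 (-0.31), which stabilises telomerase RNA, and Ruvbl2 (-0.20, lost without Rif1 shRNA replicate 2) fell, and the median was near 0. Pinx1 (0.23) and Nop10 (0.12) rose by small steps, both lost after quantile normalization and when control replicate 1 or either knockdown array was left out. Tert, the catalytic subunit of telomerase, had 148 and 156 on the control arrays and 139.8 and 136 on the Rif1 shRNA arrays (limma adjusted p = 0.282). The shelterin gene Terf1 did not pass at its brightest probe set (-0.28), although its other 2 fell, and Terf2 did not pass at any of its 3 (-0.03).

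DNA replication genes fell in 25 of 55 and rose in 6, with a median of -0.11, where 12.8% of all genes tested fell and 21.7% rose. The polymerase delta subunits Pold2, from 1679.9 and 1782 to 1075 and 1105, and Pold1 (-0.56) fell, as did Mcm10 (-0.57) and the primase partner Pola1 (-0.50). Of the subunits of the replicative helicase, Mcm3 (-0.27) and Mcm5 (-0.19) fell, Mcm6 fell (-0.11, lost without control replicate 2 or either Rif1 shRNA replicate), and Mcm2 (-0.10), Mcm4 (-0.04) and Mcm7 (-0.06) did not pass. Away from the brightest probe set, 1 of 2 probe sets of Mcm2, 1 of 2 of Mcm4 and 2 of 4 of Mcm7 fell. The related helicase gene Mcm9 rose (0.47), the largest rise on the list, and Mcm8, named after its value was seen, fell (-0.30). Ppp1cc, which encodes a subunit of protein phosphatase 1, rose from 7825 and 7872 to 8992 and 8980.3 (0.19). It was called at 1 of its 2 probe sets, and the call was lost without the intensity trend. Ppp1ca (0.03) and Ppp1cb (-0.04) did not pass, although 1 of the 2 Ppp1cb probe sets fell. Without Rif1 shRNA replicate 1 the falls were 14 and the rises 2, and without replicate 2 they were 15 and 2.

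Mitotic genes fell in 20 of 39 (median -0.17), against 12.8% of all genes tested. Nusap1, a spindle protein gene, fell from 1983 and 1946 to 1027 and 1049, and the proliferation marker Mki67 fell from 1904 and 2058 to 1323 and 1423. Bub1b (-0.46), Ccnb2 (-0.45) and Plk1 (-0.34) fell, and Cdk1 (-0.08) and Ccna2 (-0.06) did not pass. The falls were 12 without Rif1 shRNA replicate 1 and 13 without replicate 2.

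Inhibitors of the G1 phase and targets of p53 rose alongside. Cdkn1a, the inhibitor that p53 switches on, went from 1108 and 1090.2 to 2427 and 2022 (SE 0.08 on the log2 scale, limma adjusted p = 3.53e-04). Cdkn2b, from 118 and 108 to 346 and 300.2, Cdkn2a, from 416 and 448 to 953 and 873, and Cdkn1c (0.66) rose too. Every knockdown array lay above both control arrays at these inhibitors. Of 26 G1 genes 11 rose and 6 fell, among the falls Ccnd3 (-0.29) and Mycn (-0.32), although another Mycn probe set was called higher. Without Rif1 shRNA replicate 1 or 2 the rises were 7, and the falls 3 and 4.

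Of 25 p53 target genes 14 rose and 3 fell (median 0.32, and 0.20 with the probe sets of a gene averaged). Plk2, a kinase of the DNA damage response, rose from 463 and 431 to 1213 and 1112, Perp, a membrane protein of desmosomes and apoptosis, by 1.20, Phlda3 by 0.94 and Ccng1 by 0.76. Mdm2, which degrades p53, rose from 1855 and 1958 to 3267 and 2936. Gadd45a fell (-0.47), and 2 further falls, those of Ei24 (-0.22) and Pidd1 (-0.27), did not pass without either Rif1 shRNA replicate, nor Pidd1 without either control replicate. Among BCL2 family and caspase genes Casp8 rose from 83 and 75.1 to 207 and 202, Pmaip1 by 0.76 and Bcl2l11 by 0.52, and Casp2 fell (-0.40). On that list 7 of 22 rose and 4 fell, with 4 and 1 without Rif1 shRNA replicate 1 and 5 and 1 without replicate 2. Over all genes tested 21.7% rose and 12.8% fell. Fibroblasts express Cdkn1a, Cdkn2a, Cdkn2b and Plk2 as well, and their part was not tested.

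**Figure D4:**
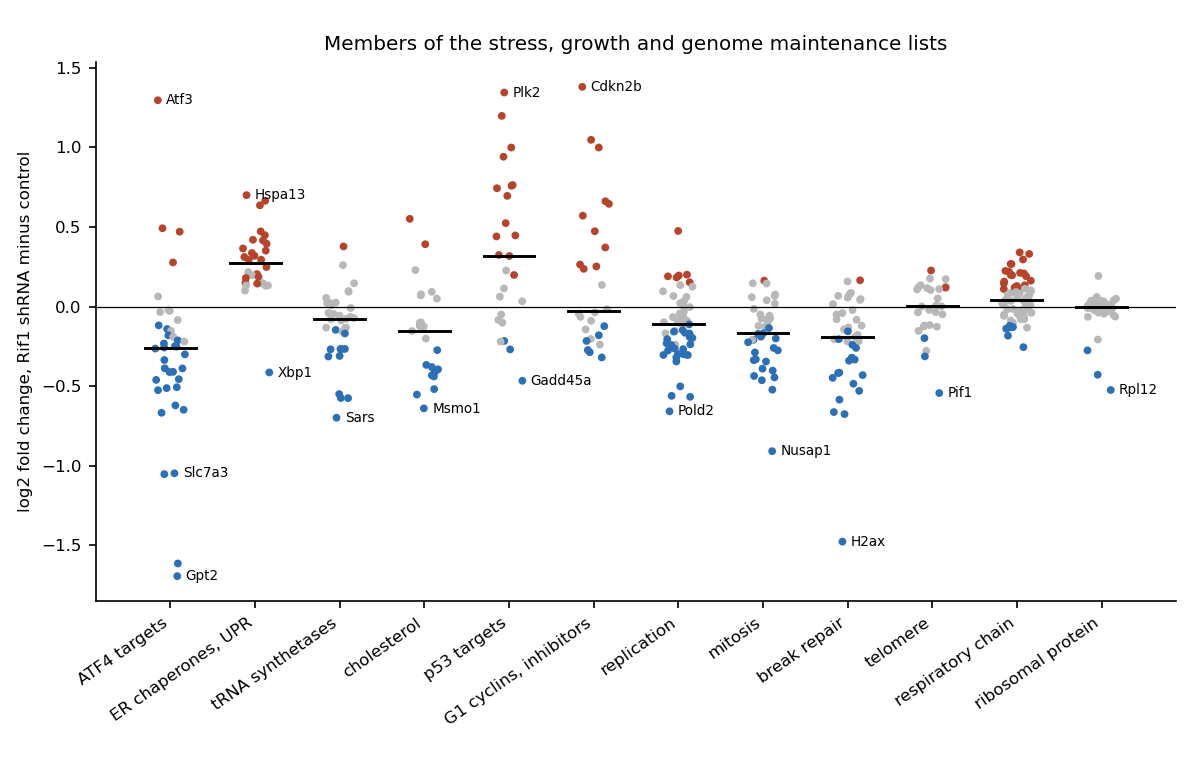
Log2 fold change of each measured gene on the lists of amino acid stress, protein folding, sterol synthesis, p53, cell cycle, genome maintenance, respiration and ribosomes (points; red past the threshold upward, blue downward, grey neither), with a bar at each list's median. ATF4 targets reach down to -1.69 and p53 targets up to 1.34, while respiratory chain genes stay between -0.26 and 0.34.

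Targets of ATF4, the factor that turns on amino acid synthesis and transport under stress, formed the list with the highest share of falls. Of 39 measured, 27 fell and 4 rose, with a median of -0.26, and without Rif1 shRNA replicate 1 the falls were 17 and the rises 2. Gpt2, the mitochondrial alanine aminotransferase gene, went from 914 and 1014 to 278 and 293 (log2 fold change -1.69, SE 0.07, limma adjusted p = 3.00e-05). Pck2, the mitochondrial PEP carboxykinase gene, went from 673 and 747 to 214 and 225. The arginine and lysine transporter gene Slc7a3 went from 2076 and 2055 to 948 and 1033. Each stood well below both controls on each knockdown array. The serine synthesis enzymes fell together, with Phgdh at -0.46, Psat1 at -0.53 and Psph at -0.65, and Aldh18a1, the first enzyme of proline synthesis, at -0.67. Nupr1, a stress cofactor, fell from 1539 and 1724 to 816 and 737. Atf4 RNA itself had 5293 and 5553 on the control arrays and 4965 and 5020.4 on the Rif1 shRNA arrays (-0.12), a call lost without control replicate 2 or either Rif1 shRNA replicate. Atf3, a relative that ATF4 and p53 both induce, rose from 432 and 450.2 to 1401 and 878, with a wide gap between the 2 knockdown arrays.

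Aminoacyl-tRNA synthetases, which load amino acids and include ATF4 targets, fell in 12 of 35 (median -0.08, and -0.12 after quantile normalization). Sars went from 2681 and 2727 to 1759 and 1565, and Cars (-0.58), Vars (-0.57) and the mitochondrial Ears2 (-0.55) fell. The composite site TGATGCAA, which ATF4 binds with C/EBP factors, was searched on both strands of the same promoters. It occurred in 1.03% of all promoters, in 77 (0.718%) of those of 10724 tested genes, in 8 of 33 ATF4 target promoters and in 4 of 26 synthetase promoters. Of the 77 tested holders 23 fell (29.9%) and 17 rose (22.1%), against 12.7% and 21.7% of the tested genes without it. Within the ATF4 list, 4 of 8 holders fell and 17 of 25 other genes fell. The windows below show the site, in capitals, in 4 genes that fell, Nupr1, Chac1, Got1 and Aars, and in Atf3, which rose. All 5 carry it as the reverse complement, TTGCATCA, and each reads 5′ to 3′ on the strand of its gene.
Nupr1 (chr7:126625543-126625610, minus strand): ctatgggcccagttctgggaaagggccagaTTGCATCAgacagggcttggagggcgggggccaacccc
Chac1 (chr2:119351019-119351086, plus strand): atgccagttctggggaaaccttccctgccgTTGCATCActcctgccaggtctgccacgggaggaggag
Got1 (chr19:43524670-43524737, minus strand): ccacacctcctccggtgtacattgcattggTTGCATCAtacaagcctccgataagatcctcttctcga
Aars (chr8:111033700-111033767, plus strand): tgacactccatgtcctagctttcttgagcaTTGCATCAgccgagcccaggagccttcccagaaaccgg
Atf3 (chr1:191183406-191183473, minus strand): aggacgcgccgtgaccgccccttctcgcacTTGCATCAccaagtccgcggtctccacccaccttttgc
The site begins 102 to 193 bases before the start in these genes. Fallen genes and a risen gene hold the same 8 letters.

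Genes of the endoplasmic reticulum moved the other way. Of 30 chaperones and unfolded protein response genes 21 rose (median 0.27), by small steps, against 21.7% of all genes tested. Hspa13 went from 382 and 357 to 613 and 609, and the degradation genes Sel1l (0.66) and Syvn1 (0.64), which pull misfolded proteins from the reticulum, rose. Hspa5, the main chaperone, rose from 7507 and 7863 to 8798 and 8697 (0.19). Xbp1, which encodes a factor that drives this response, fell from 1488 and 1325 to 1055 and 1044, at 3 of its 4 probe sets. Atf6 had 0.10 (limma adjusted p = 0.309).

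Cholesterol synthesis genes fell in 10 of 23 and rose in 2 (median -0.15; 4 rose without control replicate 2). Msmo1 fell from 1293 and 1275 to 867 and 770.4, the squalene synthase gene Fdft1 fell (-0.55), and Srebf2, the factor that drives the pathway, fell from 815 and 834 to 592 and 548. Hsd17b7 (0.55) and the sterol carrier gene Stard4 (0.39) rose. CCAAT, the box bound by NF-Y, was present on either strand in 18 of 18 promoters found for these genes, against 42.5% of tested promoters. It was also present in 20 of 24 promoters (83.3%) of the endoplasmic reticulum list, where most genes rose.

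Energy metabolism changed little apart from single genes. Of 23 glycolytic genes 7 fell and 3 rose, with 10 falls when control replicate 1 was left out and 4 when Rif1 shRNA replicate 2 was. Eno3, the muscle-type enolase gene, fell from 582 and 575 to 255 and 264, Pdk1 (-0.37) and Tpi1 (-0.30) fell, and Ldha, the most familiar member, had -0.02 (limma adjusted p = 0.671). Among 26 genes of the hypoxia response 8 rose and 4 fell, where 21.7% and 12.8% of all genes tested did. Egln3, the oxygen-sensing hydroxylase gene, fell from 385 and 449.5 to 201 and 212 and Bnip3 fell (-0.88). The collagen-modifying genes Plod2 (0.99) and P4ha2 (0.95) and the peptide gene Adm (1.01) rose, and Vegfa had -0.03 (limma adjusted p = 0.857). Plod2 and P4ha2 serve collagen synthesis and rose with the collagens of the fibroblast list.

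Of 69 nuclear-encoded respiratory chain genes 21 rose and 6 fell, by at most 0.34, with 10 and 0 without Rif1 shRNA replicate 1 with limma and 13 and 1 without replicate 2. Ndufa4 (0.34) and Ndufa12 (0.33) rose most. Over all genes tested 21.7% rose and 12.8% fell. Fitted without the intensity trend, 5 of these respiratory genes rose and 0 fell, and 1 of 31 proteasome genes rose. Proteasome subunit genes rose in 11 of 31, by at most 0.24, and in 6 without either Rif1 shRNA replicate. Of 44 cytosolic ribosomal protein genes Rpl12 (-0.52), Rps25 (-0.43) and Rps27 (-0.28, a call lost in 3 of the 4 fits that left out an array, all but that without control replicate 1) fell, and the median was -0.005 (-0.02 without control replicate 2). Of 24 NRF2 targets 5 rose and 5 fell, with Srxn1 (0.76) and Nqo1 (0.44) higher and Sod2 (-0.43) and Gsta4 (-0.41) lower. Without Rif1 shRNA replicate 2 the NRF2 rises were 2 and the falls 3, and without replicate 1 the falls were 3. Of 11 common reference genes 4 rose and 2 fell, with 2 and 1 without either Rif1 shRNA replicate: B2m rose from 869 and 855 to 1995 and 1842, Gusb fell (-0.55), and Tbp had -0.16 (limma adjusted p = 0.0921).

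B2m belongs to antigen presentation, where rises and falls were mixed. Of 25 interferon-responsive genes 10 rose and 4 fell. The guanylate-binding protein gene Gbp2 rose from 166 and 155 to 506 and 429.9, and Xaf1 (0.92) and Tapbp (0.54), a loading factor of class I molecules, rose. Oas1a, an antiviral sensor, fell (-0.71), and so did 3 neighbouring transmembrane genes, Ifitm2 from 2846 and 2913 to 1957 and 1757, Ifitm3 (-0.53) and Ifitm1 (-0.43). Irf1 (-0.02) and Irf9 (-0.01), factors of the response, did not pass.

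**Figure D5:**
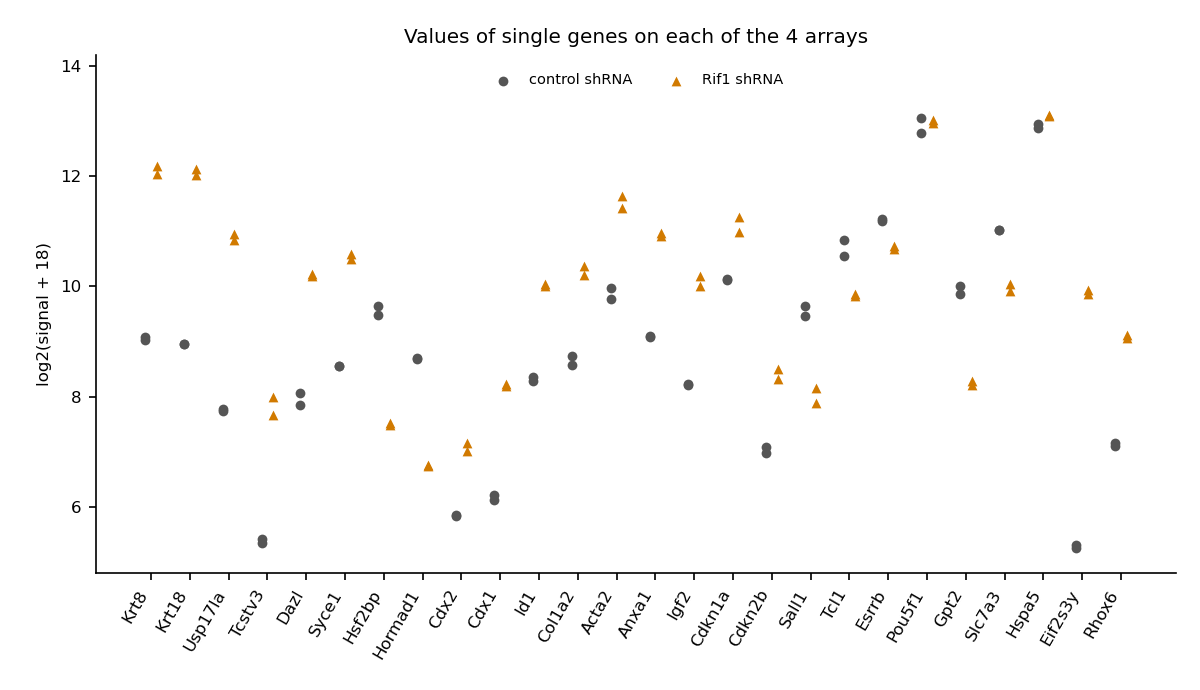
Log2(signal + 18) of 26 genes on each of the 4 F1 arrays, with circles for the 2 control arrays and triangles for the 2 Rif1 shRNA arrays. The groups lie apart at each gene shown except Pou5f1, where they overlap; levels of different genes are not comparable on this axis.

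Outside the lists, the largest rises included Chit1, a chitinase gene, from 88.5 and 85.6 to 694 and 606, the arginase gene Arg2, from 54.8 and 52.9 to 439 and 384, the lymphotoxin gene Ltb, from 136 and 140.4 to 837 and 734, and Hmgn3, a nucleosome-binding protein gene, from 125 and 130.0 to 667 and 631. Each was far above both controls on each knockdown array. The zinc finger gene Zfp560 rose from 349 and 339 to 1633 and 1482 and the cancer-testis gene Ct55 on the X from 38.4 and 45.8 to 253 and 255. Among the falls, Ptch1, the Hedgehog receptor and itself a Hedgehog target, went from 3143 and 3116 to 1212 and 1172 (log2 fold change -1.38, SE 0.04, limma adjusted p = 1.03e-05). Zfp229 fell from 568 and 531 to 133 and 131, Accsl from 354 and 353 to 84.8 and 82.5, the B cell adaptor gene Blnk from 421 and 440.1 to 129.8 and 136, and Mcf2, an exchange factor gene on the X, from 570.4 and 589.5 to 207 and 224. The noncoding Platr4, a transcript of pluripotent cells, fell from 243 and 278 to 105 and 104.

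The changes were spread over all chromosomes. Setting aside the Y, where 3 of 5 genes rose, the share of genes that rose was highest on the X (29.0% of 420 genes) and on chromosomes 3 (28.2%), 1 (27.5%) and 13 (27.4%), and lowest on chromosome 17 (16.5%), against 21.7% over all. Medians by chromosome ran from -0.02 on chromosomes 7 and 17 to 0.06 on the X and chromosome 3, the Y again set aside. Chromosome 13 held 7 of the 32 genes that rose at least 4-fold, 6 of them in the run that contains Tcstv1 and Tcstv3.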

How the data were processed

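RNA from the 4 F1 arrays was measured on the Affymetrix Mouse Genome 430 2.0 platform. The authors deposited 1 signal intensity for each probe set, computed with MAS5 per the submitters' processing notes; its version and scaling target are not given in the sources used here. Trimmed means were 299.8 and 300.5 on the control arrays and 307.8 and 307.4 on the knockdown arrays, which is close but a little higher in the knockdown group. Of 45101 probe sets, 64 control probe sets were left out, and 34945 had a single gene symbol in GEO's platform annotation, 34754 of them matched to RefSeq, while 932 had several and 9160 none.

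Log2(signal + 18) was compared with limma 3.58.1 in R 4.3.3 (empirical Bayes with an intensity trend, 2 residual degrees of freedom) over the 27733 probe sets above the array's 40th percentile (signals of 46.6 to 47.4) on at least 2 arrays. Values were not rescaled. Benjamini-Hochberg adjusted p-values under 0.05 were called, two-sided. The script was tested on simulated data. The labels do not say that replicate numbers mark a shared culture or batch. Figures were drawn with Python 3.11.15 and matplotlib 3.10.9.

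Genes to name were drawn from the Rif1 probe sets, the 30 largest rises and the 30 largest falls. From each list they were drawn from fixed anchors and the 5 largest called rises and falls, with some others added. Not every gene of these sets is named, nor every gene behind a small count. The comparison, the gene lists and the tests were chosen with earlier results of these data known. Alternatives were another offset, scaling, filter, threshold and trend, a fit of all 8 arrays after quantile normalization, a replicate block, and leaving out each array.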

Additional observations from a re-analysis of the deposited data

How the results depend on the processing

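With 2 arrays in each group, small changes were the least settled. Among the genes and probe sets named, 0 calls changed direction under any setting. The number of changed probe sets, 8098, was 4353 to 7718 when an array was left out; higher ones were 2884 to 4697 and lower ones 1469 to 3202, lowest in each case without Rif1 shRNA replicate 1. Past 2-fold, 521 to 573 were higher and 78 to 117 lower. In a fit of all 8 arrays, quantile normalized, the changed and higher probe sets were 4994 and 2708, and at a threshold of 0.01 they were 4172 changed, 2823 higher and 1349 lower, with the dim Rif1 probe set (-1.65) no longer called. With an offset of 72, 286 rose and 39 fell past 2-fold, since a larger offset shrinks the change of dim probe sets. The causes of the other shifts were not tested.

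With the replicate number as a block, 9715 probe sets were called, 8098 of them shared with the fit without it; same-numbered arrays deviated together with a correlation of 0.24, from a single pairing of groups of 2, and the labels do not say what a number shares.

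Some genes that did not pass had no stable sign (log2 fold changes). When single arrays were left out, values ran for Ddx4 from -0.027 to 0.12, Dnmt1 from -0.032 to 0.0054, Egln1 from -0.15 to 0.097, Hk1 from -0.12 to 0.064, Hmox1 from -0.024 to 0.60, Irf9 from -0.040 to 0.014, Kdr from -0.10 to 0.13, Mixl1 from -0.024 to 0.095, Pou3f1 from -0.43 to 0.11, Pou5f1 from -0.056 to 0.22, Spry1 from 0.014 to 0.094, Spry4 from -0.18 to 0.21, Terf2 from -0.12 to 0.054 and Vegfa from -0.13 to 0.068. Opposite to their values without rescaling, Kdr was -0.017 after quantile normalization, -0.0054 after median centring and -0.014 with all 8 arrays quantile normalized; Spry1 was -0.0075 after quantile normalization and -0.0060 with all 8 arrays quantile normalized; Spry4 was -0.054 after quantile normalization, -0.0021 after median centring and -0.051 with all 8 arrays quantile normalized.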
